A study of Mus musculus with 4 samples.

Results

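Interstitial Pi16-type progenitor nuclei made up 1829 of the 50067 nuclei that passed filtering in 4 single-nucleus RNA libraries of mouse inguinal white adipose tissue, or 3.65%. They were chosen by their own counts. A nucleus had at least 300 detected genes and at most 10% mitochondrial unique molecular identifiers (UMIs, each a single captured transcript). It also had at least 1 UMI for 2 or more of 8 interstitial markers (Pi16, Fndc1, Lvrn, Gfpt2, Opcml, Sema3c, Tmem100 and Pcolce2) and for 1 or more of 6 stromal genes (Lama2, Col1a1, Col1a2, Col3a1, Dcn and Pdgfra), and fewer than 4 of 9 adipocyte genes (Adipoq, Plin1, Cidec, Acsl1, Ghr, Pde3b, Fam13a, Acaca and Gpam). The levels of these 23 genes are therefore a description of the choice and were not tested. All libraries came from C57BL/6N mice aged 6 months and were made with a microwell nucleus kit. By their labels, 2 libraries were from PTRF knockout mice and 2 from wild-type mice, and PTRF is the older name of cavin-1, encoded by Cavin1. The series title speaks of a distal enhancer of this gene, whereas the labels give a knockout without the altered sequence. Sex and the number of mice behind each library were not given, so p-values measure the spread between these libraries, which may be technical.

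Progenitors of the fat stroma are fibroblast-like cells that lie between and around adipocytes and supply new ones. In mouse subcutaneous fat, cells with Pi16, a secreted peptidase inhibitor, and Dpp4, a surface peptidase, lie in the connective tissue around the fat lobules and are regarded as an uncommitted pool. Committed preadipocytes, which carry genes such as Icam1 and Pparg, stand closer to the adipocyte. Cavin-1 is a coat protein of caveolae, small membrane invaginations abundant in adipocytes and endothelium.

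Cavin1 went against the labels. In Pi16-type nuclei it had 16 and 163 UMIs in the libraries labelled knockout 1 and 2, against 0 and 1 UMI in those labelled wild type 1 and 2. Pooled over all UMIs of the members, the labelled knockout libraries held 123 times the Cavin1 of the labelled wild-type libraries, with an exact 95% interval of 21.8 to 4890 that covers counting error only. At 0 counts, the library labelled wild type 1 could hold up to 3.46 CPM (counts scaled to a fixed library total) within a limit of 3 counts. The names under which the files were deposited also give each library the opposite genotype to its label. Every direction below is labelled knockout relative to labelled wild type and may therefore run from wild type to knockout.

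The promoters of the gene that names these nuclei and of the targeted gene are printed as the RefSeq windows of 250 bases before to 50 bases after the start, on build GRCm38.p6. The Pi16 window lies at chr17:29318632-29318931 on the plus strand and the Cavin1 window at chr11:100970568-100970867 on the minus strand. Both strands were searched for an E-box (CANNTG), a glucocorticoid receptor motif (AGAACA), a TEAD site (GGAATG) and a TATA box (TATAAA). Capitals mark the glucocorticoid receptor motif of the Pi16 window and the TEAD site of the Cavin1 window, each read on the opposite strand.
Pi16: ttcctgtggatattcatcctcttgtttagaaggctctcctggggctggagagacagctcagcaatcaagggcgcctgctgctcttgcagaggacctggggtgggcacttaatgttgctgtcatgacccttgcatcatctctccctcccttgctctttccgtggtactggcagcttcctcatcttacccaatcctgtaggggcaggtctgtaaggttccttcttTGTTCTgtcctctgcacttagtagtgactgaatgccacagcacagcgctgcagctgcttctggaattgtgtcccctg
Cavin1: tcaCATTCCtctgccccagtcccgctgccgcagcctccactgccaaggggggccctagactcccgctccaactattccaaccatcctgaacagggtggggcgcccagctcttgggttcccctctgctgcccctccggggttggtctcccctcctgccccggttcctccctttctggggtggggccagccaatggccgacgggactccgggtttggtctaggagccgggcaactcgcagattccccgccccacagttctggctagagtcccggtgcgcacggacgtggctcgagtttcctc
The Pi16 window held 1 glucocorticoid receptor motif, starting at base 224 of the window, and 1 E-box, starting at base 274, with a GC content of 53.3%. The Cavin1 window held 1 TEAD site, starting at base 4, and none of the other motifs, with a GC content of 66.7%. Of 32851 promoters of this length, 19.0% held the glucocorticoid receptor motif, 72.3% an E-box, 14.7% the TEAD site and 13.6% the TATA box, and the median GC content was 52.7%. Of the 8 markers, 6 had a promoter entry.

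The members were unevenly spread over the libraries. There were 164 and 767 in labelled knockout 1 and 2, against 590 and 308 in labelled wild type 1 and 2, with a median of 1074, 1969, 1235 and 1326 UMIs per member in the same order. Labelled knockout 1 thus rested on the fewest members and, with 204704 UMIs in all, on the least sequence, while labelled knockout 2 had 1876706 UMIs. No cell barcode was shared among members of different libraries. Of nuclei with 2 or more markers, 182 and 390 in the labelled knockout libraries and 212 and 155 in the labelled wild-type libraries lacked every stromal gene. A further 16 and 321 in labelled knockout and 40 and 11 in labelled wild type had 4 or more adipocyte genes. Labelled knockout 2 also held 273 members at 3 adipocyte genes, just inside the limit, against 12 in labelled knockout 1 and 48 and 16 in labelled wild type. Ghr, the growth hormone receptor and 1 of the 9 adipocyte genes, was detected in 66.0% of T and NK nuclei of labelled knockout 2, against 18.9% in labelled knockout 1 and 23.1% and 11.7% in labelled wild type.

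Detection of the markers is a description of the choice and no check of the name, since the gate asked for 2 of them. It is set beside T and NK nuclei of the same library, which should lack them. Opcml, a cell adhesion protein, had a UMI in 78.0% and 82.3% of members in labelled knockout and in 82.0% and 82.8% in labelled wild type, against 8.35% to 14.8% of T and NK nuclei. Fndc1, a matrix-associated protein with fibronectin type III repeats, was detected in 63.4% and 59.8% of labelled knockout members and 63.2% and 62.0% of labelled wild-type members, against 1.94% to 3.65% of T and NK nuclei. Opcml was found together with Fndc1 in 48.2% to 54.7% of the members of a library and together with Sema3c, a secreted semaphorin, in 36.6% to 55.4%. Pi16 itself was detected in fewer members, 18.3% and 30.6% in labelled knockout and 35.6% and 45.5% in labelled wild type, against 0.80% to 1.59% of T and NK nuclei. Median depth was 1074 to 1969 UMIs in members and 897 to 1643 in T and NK nuclei. Of the T and NK nuclei, 0% and 1.94% in labelled knockout and 1% and 0.531% in labelled wild type passed the whole gate.

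The members differed in how many of the 8 markers they carried. Exactly 2 markers, just inside the gate, were found in 56.7% and 41.1% of members in labelled knockout and in 24.6% and 30.2% in labelled wild type. At least 5 markers were found in 9.15% and 30.1% of members in labelled knockout and in 41.4% and 39.9% in labelled wild type. The labelled knockout libraries lay above the labelled wild-type libraries in the share with 2 markers and below them in the share with 5 or more, without overlap. For 2 libraries against 2, such an order cannot give an exact two-sided permutation p under 0.333. With every nucleus thinned to 600 UMIs, the shares with exactly 2 markers were 55.8% and 40.0% in labelled knockout and 27.7% and 34.8% in labelled wild type, again without overlap. Just outside the gate, 485 and 1136 nuclei in labelled knockout and 505 and 316 in labelled wild type had 1 marker beside a stromal gene.

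**Figure D1:**
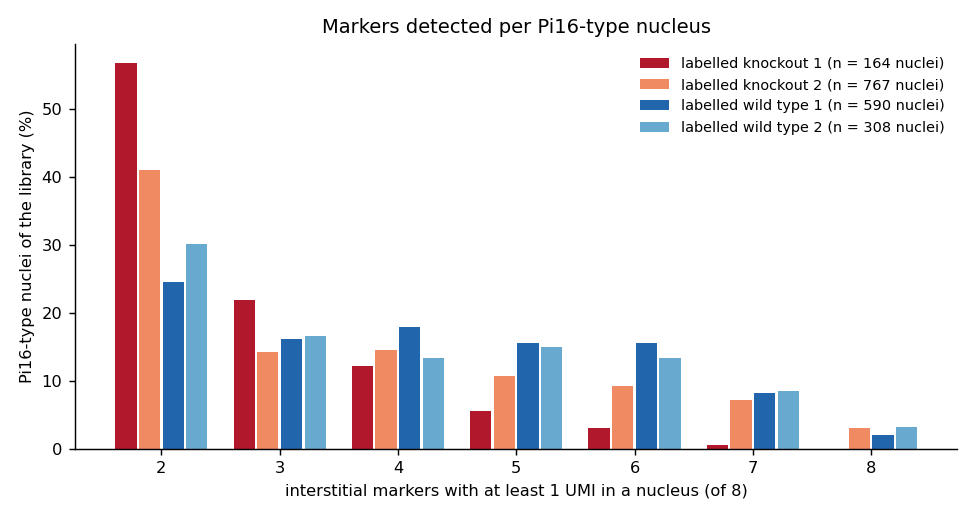
Share of Pi16-type nuclei (vertical axis, % of the members of a library) by the number of the 8 markers detected (horizontal axis), with 1 bar for each library. The labelled knockout libraries hold 56.7% and 41.1% of members at 2 markers, above the 24.6% and 30.2% of labelled wild type.

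Levels of the marker genes followed the same split. Lvrn, an aminopeptidase also called laeverin, stood at 166 and 261 CPM in labelled knockout and 908 and 685 CPM in labelled wild type, where CPM is normalised by the trimmed mean of M values (TMM). Gfpt2, an enzyme of the hexosamine pathway, stood at 280 and 358 CPM in labelled knockout and 1298 and 681 CPM in labelled wild type. Pi16 stood at 213 and 293 CPM in labelled knockout and 555 and 730 CPM in labelled wild type. The groups did not overlap for any of these 3 genes. Opcml, Sema3c, Tmem100 and Pcolce2 were also lower in labelled knockout without overlap. Opcml, for example, stood at 2469 and 2674 CPM in labelled knockout and 3745 and 4074 CPM in labelled wild type. Fndc1 overlapped, at 1333 and 856 CPM in labelled knockout and 1367 and 1245 CPM in labelled wild type. Among the stromal genes of the gate, Col1a1, a chain of type I collagen, went the other way. It had 467 and 578 CPM in labelled knockout and 115 and 230 CPM in labelled wild type. Col1a2 and Col3a1 were also higher in labelled knockout without overlap, and Pdgfra was so by a narrow margin. Dcn and Lama2 overlapped. These levels were part of the choice of the nuclei and carry no test.

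Genes outside the gate described the members further. The closest neighbours were 1871 other stromal nuclei with at least 2 of the 6 stromal genes, none of the 8 markers and fewer than 4 adipocyte genes. Levels were set against theirs within each library, as CPM of all UMIs, and without a test because the gate sorted both groups by their counts. Dpp4 stood at 405 and 725 CPM in Pi16-type nuclei of labelled knockout and 977 and 660 CPM in those of labelled wild type, against 57.1 and 74.3 CPM in other stromal nuclei of labelled knockout and 23.6 and 32.6 CPM in those of labelled wild type. Anxa3, an annexin that binds membrane lipids, stood at 244 and 440 CPM in members of labelled knockout and 560 and 627 CPM in those of labelled wild type, against 23.8 to 47.1 CPM in other stromal nuclei. Creb5, a transcription factor of the CREB family, stood at 1065 and 1515 CPM in members of labelled knockout and 1975 and 2570 CPM in those of labelled wild type, against 208 to 380 CPM in other stromal nuclei. All 3 were higher in Pi16-type nuclei of all 4 libraries.

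Leading genes were the 25 with the highest ratio in their least favourable library. Sfrp4, a secreted Wnt antagonist, led with a log2 ratio of at least 3.54 in every library, and Wnt10b, a Wnt ligand that restrains adipogenesis, followed with 3.36. Dact2, a regulator of Wnt and TGF-beta signalling, had a lowest ratio of 2.01. In other stromal nuclei Sfrp4 stood at 1.39 to 3.62 CPM, Wnt10b at 0 to 3.62 CPM and Dact2 at 0 to 6.73 CPM. The sizes and order of these ratios therefore rest on very few counts and on the prior count. Enzymes and surface proteins among the 25 included Ace, the angiotensin-converting enzyme, with 2.39, Procr, the endothelial protein C receptor, with 2.12, and Ackr3, a scavenging chemokine receptor, with 2.09. Ugdh, which makes the UDP-glucuronic acid used for hyaluronan, had 2.31, and the transcription factors Rorb and Klf4 had 2.19 and 2.09. At the other end, Il7, a lymphocyte growth factor, had its least negative log2 ratio at -2.14, the matrix protein tenascin C (Tnc) at -1.91 and the matrix Gla protein Mgp, an inhibitor of calcification, at -1.88. All 25 leading genes were also above 0 in all 4 libraries after thinning to 600 UMIs and against all other filtered nuclei. Only 6 of them were among the 25 leading genes of the last comparison. Both comparisons reuse UMIs of the nuclei from which the 25 were picked, so neither is an independent check.

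**Figure D2:**
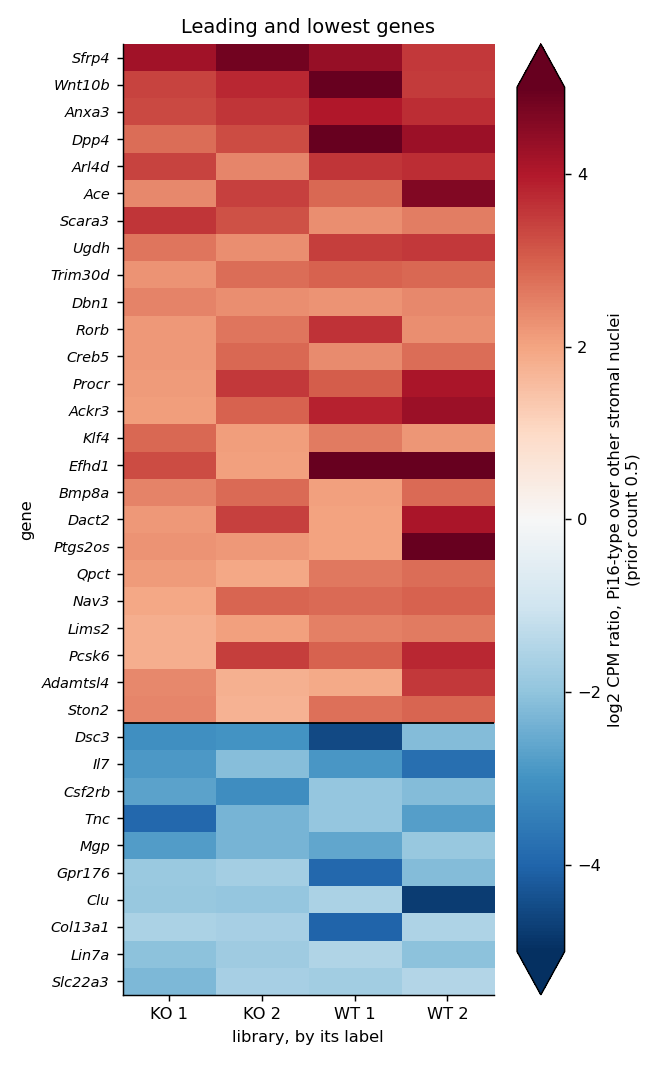
Log2 ratio of CPM, Pi16-type over other stromal nuclei (colour), for the 25 leading and 10 lowest genes (down the page) in each library (across, labelled knockout KO 1 and 2, then labelled wild type WT 1 and 2). Ratios of the leading genes are at least 1.72 in every library and those of the lowest genes at most -1.48.

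The other interstitial genes moved with the 8 markers. The gene lists were chosen with earlier results of these data known, so shares by list are a description and no test. Of 30 interstitial progenitor genes outside the gate, 26 reached a mean of 20 CPM, and 23 of these (88.5%) were higher in Pi16-type than in other stromal nuclei in all 4 libraries, against 10.4% of all 8545 genes at that level. The exceptions were Bmp7, Il33 and Axin2. Col14a1, a fibril-associated collagen, stood at 381 and 511 CPM in members of labelled knockout and 842 and 495 CPM in those of labelled wild type, against 64.0 to 152 CPM in other stromal nuclei. Cd55, a surface inhibitor of complement, stood at 278 and 266 CPM in members of labelled knockout and 313 and 407 CPM in those of labelled wild type, against 7.24 to 129 CPM in other stromal nuclei. Of 18 committed preadipocyte genes at 20 CPM, none was higher and 12 (66.7%) were lower in Pi16-type nuclei of all 4 libraries, against 16.3% of all genes. Adam12, a membrane metalloprotease, was 1 of the 12, at 542 and 581 CPM in members of labelled knockout and 117 and 302 CPM in those of labelled wild type, against 1028 and 810 CPM in other stromal nuclei of labelled knockout and 1054 and 1992 CPM in those of labelled wild type.

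Matrix and transcription factor genes were mixed. Of all 8545 genes at 20 CPM, 10.4% were higher in Pi16-type nuclei in all 4 libraries and 16.3% lower. Of 22 elastic fibre and fibronectin matrix genes, 10 (45.5%) were higher in this way and 4 (18.2%) lower. They included Fbn1, the main fibrillin of microfibrils, with 611 and 723 CPM in members of labelled knockout and 817 and 1156 CPM in those of labelled wild type, against 194 to 261 CPM in other stromal nuclei. Of 20 adipogenic transcription factor genes, 9 (45%) were higher and 1 lower, and Ebf2, an early factor of the adipose lineage, had a lowest log2 ratio of 0.80. Of 17 collagen genes, 3 (17.6%) were higher and 2 (11.8%) lower, near the shares of all genes. Of 20 Wnt signalling genes, 5 (25%) were higher and 7 (35%) lower. Vcan, a large hyaluronan-binding proteoglycan, had a lowest log2 ratio of 1.24, and Fn1, fibronectin, of 0.95.

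Interstitial genes outside the gate were higher in nuclei with more markers. The summed level of the 30 interstitial genes outside the gate was 1225 and 1353 CPM in labelled knockout and 1336 and 1406 CPM in labelled wild type among nuclei with none of the 8 markers. Among members with 5 to 8 markers it was 12459 and 11955 CPM in labelled knockout and 11769 and 14402 CPM in labelled wild type. At 2 markers it was 2905 and 2471 CPM in labelled knockout and 3078 and 2743 CPM in labelled wild type, closer to the nuclei outside the gate than to those with 5 or more. The groups overlapped at 5 to 8 and at 2 markers, but not at 3 or 4, where labelled knockout held 6117 and 5711 CPM and labelled wild type 7908 and 7076 CPM.

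The committed preadipocyte genes were summed along the same axis. Among nuclei with none of the markers their sum over 20 genes was 2776 and 2847 CPM in labelled knockout and 2952 and 2980 CPM in labelled wild type, lower in labelled knockout without overlap. At 2 markers it was 5165 and 4794 CPM in labelled knockout and 3590 and 1827 CPM in labelled wild type. At 3 or 4 markers it was 2487 and 5359 CPM in labelled knockout and 1575 and 2037 CPM in labelled wild type. In these members with 2 to 4 markers the labelled knockout libraries were higher without overlap. At 5 to 8 markers the sums were 896 and 1879 CPM in labelled knockout and 973 and 529 CPM in labelled wild type, and the groups overlapped. The strata with 5 to 8 markers held 15 and 231 nuclei in labelled knockout and 244 and 123 in labelled wild type, so labelled knockout 1 contributed few.

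**Figure D3:**
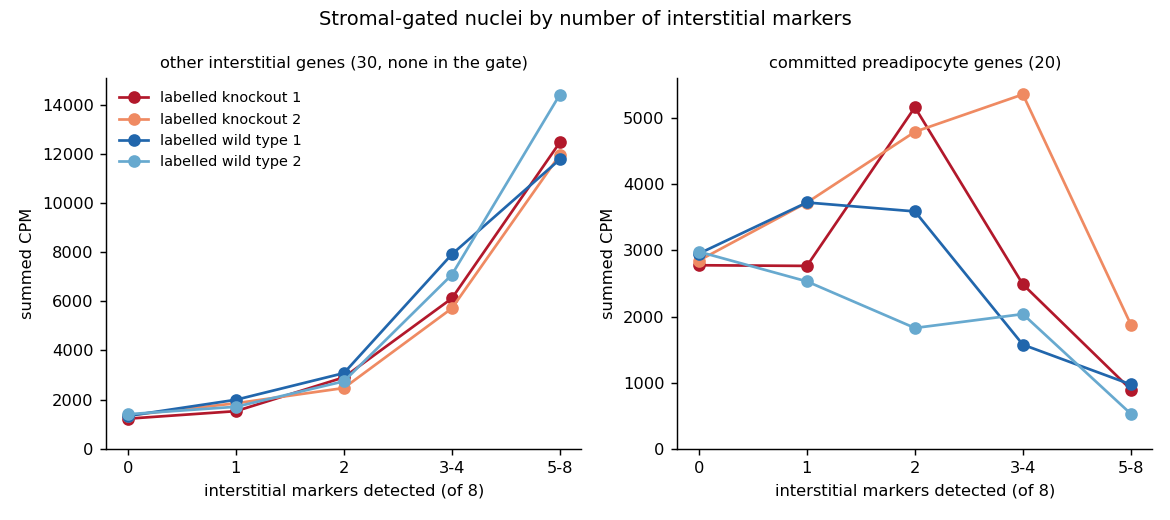
Summed CPM of 30 interstitial genes outside the gate (left) and of 20 committed preadipocyte genes (right) in stromal-gated nuclei by number of the 8 markers (horizontal axis), with 1 line for each library. The interstitial sum lies between 11769 and 14402 CPM at 5 to 8 markers, against 1225 to 1406 CPM at none.

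The share of Pi16-type nuclei was compared between the labels. Members were 1.37% and 4.83% of all filtered nuclei in labelled knockout and 3.80% and 4.62% in labelled wild type, which overlapped (difference of means -1.11 percentage points, exact two-sided permutation p = 1). The exact binomial 95% interval was 1.17% to 1.59% for labelled knockout 1 and 4.50% to 5.17% for labelled knockout 2, so the labelled knockout libraries differed from each other by more than counting error. Of stromal nuclei (at least 1 of the 6 stromal genes and fewer than 4 adipocyte genes), members were 7.69% and 16.9% in labelled knockout and 22.2% and 21.4% in labelled wild type. These did not overlap (means of 12.3% ± 6.48 in labelled knockout and 21.8% ± 0.576 in labelled wild type, SD, n = 2 each), and the exact two-sided permutation p of 0.333 is the smallest that 2 libraries against 2 can give. Thinned to 600 UMIs, which left out 12.7% to 19.4% of nuclei per library, the shares of stromal nuclei were 5.76% and 14.4% in labelled knockout and 23.4% and 20.5% in labelled wild type.

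Gene levels in Pi16-type nuclei were compared between the labels on UMI counts summed per library. edgeR's quasi-likelihood test with Benjamini-Hochberg adjustment called 12 of 9840 genes (0.122%), 8 higher (0.0813%) and 4 lower (0.0407%) in labelled knockout. Without adjustment, 460 genes (4.67%) had p under 0.05. None of the 12 was a gene of the gate, and 3 were predicted genes (Gm47283, 4833422C13Rik and Gm16263). The 9 named genes were Cavin1, Col5a3, Sparcl1, Lum and Fgf10, which rose, and C7, Irf4, Cadm3 and Errfi1, which fell. Values below are TMM-normalised CPM. The share of all genes without overlap between the labels was not counted, so an order without overlap is a description and no test.

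The matrix genes among those that rose were low in members of labelled wild type. Col5a3, a minor chain of type V collagen (chromosome 9, 20770050 to 20815067, minus strand, GRCm38), had 270 and 183 CPM in labelled knockout and 21.2 and 51.1 CPM in labelled wild type (log2 difference 2.66, SE 0.44, adjusted p = 0.0395). Lum, the keratan sulphate proteoglycan lumican (chromosome 10, 97565128 to 97572703, plus strand), had 208 and 248 CPM in labelled knockout and 52.5 and 59.0 CPM in labelled wild type (2.05, SE 0.34, adjusted p = 0.0395). Sparcl1, a secreted relative of osteonectin (chromosome 5, 104079111 to 104113733, minus strand), had 161 and 184 CPM in labelled knockout and 40.0 and 37.4 CPM in labelled wild type (2.16, SE 0.36, adjusted p = 0.0424). For all 3, both labelled knockout libraries lay above both labelled wild-type libraries, and this order also held among members with 2, with 3 or 4 and with 5 to 8 markers taken apart. At 5 to 8 markers this order rests on single counts, since labelled knockout 1 had 3 UMIs of Col5a3, 2 of Lum and 1 of Sparcl1 there. Col5a3, Lum and Sparcl1 also lay in that order in stromal nuclei with none or 1 of the markers.

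Fgf10, a growth factor of the preadipocyte (chromosome 13, 118669791 to 118792115, plus strand), had 342 and 357 CPM in labelled knockout and 111 and 62.9 CPM in labelled wild type (1.99, SE 0.34, adjusted p = 0.0445). The order was the opposite in stromal nuclei with no marker, at 150 and 117 CPM of all UMIs in labelled knockout and 159 and 250 CPM in labelled wild type. Fgf10 overlaps the antisense gene Gm16263, itself called higher, with 223 and 234 CPM in labelled knockout and 27.5 and 59.0 CPM in labelled wild type. The sources used here do not say whether counting used the strand, so reads of the antisense pair cannot be told apart. Cavin1 had 83.0 and 87.8 CPM in labelled knockout and 0 and 1.97 CPM in labelled wild type (6.54, SE 0.83, adjusted p = 0.00935), and its fitted log2 difference depends on the prior count. It was detected in 15 and 111 members of labelled knockout and in 0 and 1 of labelled wild type. The split was not particular to the members. Other stromal nuclei held 29 and 59 UMIs of Cavin1 in labelled knockout and 1 and 2 in labelled wild type.

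A growth factor pathway inhibitor, a transcription factor and an adhesion molecule were among the genes that fell. Errfi1, a feedback inhibitor of the EGF receptor (chromosome 4, 150853919 to 150868892, plus strand), had 161 and 304 CPM in labelled knockout and 1138 and 866 CPM in labelled wild type (-2.05, SE 0.36, adjusted p = 0.0445). Irf4, a transcription factor of lymphocytes and of fasted adipose tissue (chromosome 13, 30749226 to 30766976, plus strand), had 20.8 and 25.3 CPM in labelled knockout and 129 and 144 CPM in labelled wild type (-2.48, SE 0.41, adjusted p = 0.0395). Cadm3, a cell adhesion molecule (chromosome 1, 173333258 to 173367695, minus strand), had 36.3 and 42.0 CPM in labelled knockout and 200 and 155 CPM in labelled wild type (-2.14, SE 0.37, adjusted p = 0.0445). Both labelled knockout libraries were lower for each of the 3. Errfi1 and Irf4 kept this order in each stratum of members by marker number. At 5 to 8 markers labelled knockout 1 had 7 UMIs of Errfi1 and 2 of Irf4. Cadm3 kept the order in members with 3 or 4 and 5 to 8 markers but not in those with 2. Errfi1 also lay in that order in stromal nuclei with none or 1 of the markers. With none it had 95.8 and 92.3 CPM of all UMIs in labelled knockout and 297 and 156 CPM in labelled wild type. Irf4 overlapped in both of these strata, and Cadm3 overlapped with none but not with 1. Cadm3 overlaps Ackr1 on the same strand and Aim2 on the other, and Errfi1, Col5a3, Sparcl1 and C7 overlap predicted or small RNA genes on the opposite strand.

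C7, a component of the complement membrane attack complex (chromosome 15, 4988762 to 5063740, minus strand), had 5.19 and 20.5 CPM in labelled knockout and 244 and 112 CPM in labelled wild type (-3.38, SE 0.52, adjusted p = 0.0395). Its UMIs lay in a handful of nuclei, namely 1 and 7 members in labelled knockout and 20 and 7 in labelled wild type. In labelled wild type the 5 richest members held 81.0% and 96.5% of its UMIs. Without members that carried 2 markers of another cell type, the log2 difference was -1.21 with an adjusted p of 0.896. In stromal nuclei with none of the markers C7 was lower in labelled knockout as well. It had 9.31 and 7.93 CPM of all UMIs there, against 152 and 27.4 CPM in labelled wild type. With 1 marker the groups overlapped.

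**Figure D4:**
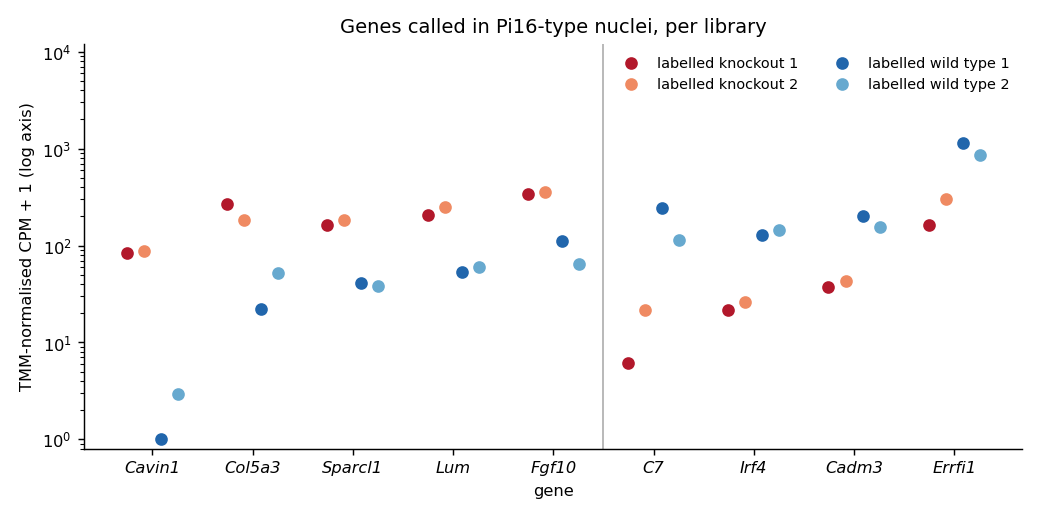
TMM-normalised CPM plus 1 (vertical log axis) of the 9 named genes called in Pi16-type nuclei, with 1 point for each library. For Cavin1, Col5a3, Sparcl1, Lum and Fgf10 (left of the line) both labelled knockout points lie above both labelled wild-type points, and for C7, Irf4, Cadm3 and Errfi1 below them.

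With 2 libraries a group, none of these calls held under every setting. Each of the 9 kept its direction under all alternatives that gave a value, and each lost its call under some, from 3 for Cavin1 to 10 for Errfi1. Leaving out labelled knockout 1 ended the call of Errfi1 (adjusted p = 0.101), and leaving out labelled wild type 2 ended that of Fgf10 (adjusted p = 0.0733, edgeR in both).

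The genes with the next smallest p did not pass the threshold and are given as values. Sema3e, a semaphorin that binds plexin D1, had 83.0 and 131 CPM in labelled knockout and 493 and 330 CPM in labelled wild type (log2 difference -1.87, edgeR adjusted p = 0.0531). Slc43a3, a purine nucleobase transporter, had 140 and 207 CPM in labelled knockout and 662 and 545 CPM in labelled wild type (-1.75, edgeR adjusted p = 0.0531). Col4a2, a chain of basement membrane collagen, had 431 and 286 CPM in labelled knockout and 112 and 108 CPM in labelled wild type (1.67, edgeR adjusted p = 0.0779). The groups did not overlap for these 3. Jchain, the joining chain of secreted antibody, had 20.8 and 129 CPM in labelled knockout and 3.75 and 3.93 CPM in labelled wild type (4.45, edgeR adjusted p = 0.0518), and in labelled knockout 2 a single nucleus held 182 of its 239 UMIs. Also on the higher side were Fam49a (log2 difference 1.76), Gucy1a1, a subunit of the nitric oxide receptor (3.04), and Enpp2, the lysophosphatidic acid enzyme autotaxin (1.49). On the lower side were Galnt15 (-2.33), Ugdh (-1.59), the RNA editing enzyme Adarb1 (-2.41) and Dusp1, a phosphatase of MAP kinases (-1.92). The edgeR adjusted p of these 7 genes ran from 0.0559 to 0.16.

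The committed preadipocyte list held 2 of the calls. Since the lists were chosen with earlier results of these data known, counts by list, here and below, are a description. Of its 20 genes 18 were tested, and Sparcl1 and Fgf10 rose, against 0.0813% of all genes. A further count at unadjusted p under 0.05 gave 11 higher and 0 lower, against 2.21% and 2.47% of all genes. The log2 difference was above 0 for 16 of the 18, with a median of 1.27, against 49.6% of all genes and a median of -0.00. Members that did not pass the adjusted test included Pparg, the master regulator of adipogenesis, with 244 and 281 CPM in labelled knockout and 110 and 76.7 CPM in labelled wild type (1.49, edgeR adjusted p = 0.176), and Lpl, lipoprotein lipase, with 296 and 527 CPM in labelled knockout and 212 and 84.6 CPM in labelled wild type (1.48, edgeR adjusted p = 0.412). Neither gene overlapped between the labels, which is a description and no test. With a gate of at least 3 markers, 13 of 16 tested genes were above 0 with a median of 1.23 and 1 call, while in other stromal nuclei 6 of 18 were above 0 with a median of -0.20.

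The other interstitial genes lay on the opposite side. Of 27 tested, Cadm3 fell, against 0.0407% of all genes, and none rose. The log2 difference was above 0 for 4 of the 27, against 49.6% of all genes, with a median of -0.65, and of -0.35 with the gate of at least 3 markers. In other stromal nuclei 8 of 19 were above 0 with a median of -0.21. Creb5 had 1131 and 1532 CPM in labelled knockout and 2142 and 2848 CPM in labelled wild type (-0.90, edgeR adjusted p = 0.803). Dpp4 overlapped, with 431 and 733 CPM in labelled knockout and 1059 and 732 CPM in labelled wild type. The share of members with exactly 2 markers moved with the labels as well, at 56.7% and 41.1% in labelled knockout and 24.6% and 30.2% in labelled wild type, and its part in these lists was not tested.

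Collagens and proteoglycans gave a call each. Of 17 collagen genes tested, Col5a3 rose, against 0.0813% of all genes, and 6 had unadjusted p under 0.05 on the higher side and none on the lower, against 2.21% and 2.47% of all genes. The log2 difference was above 0 for 14 of the 17 with a median of 0.43, and in other stromal nuclei for 11 of 17 with a median of 0.30. Col6a3, a chain of the beaded type VI collagen, had 591 and 489 CPM in labelled knockout and 157 and 366 CPM in labelled wild type (1.05, edgeR adjusted p = 0.764). Of 7 small leucine-rich proteoglycans, Lum rose and the rest did not pass, among them Ogn with 93.4 and 224 CPM in labelled knockout and 161 and 124 CPM in labelled wild type. Neither the 22 elastic fibre genes (median -0.20) nor the 19 matrix remodelling genes (median 0.02) held a call.

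Among signalling and transcription factor lists, Irf4 was the lone call of 22 adipogenic factors, against 0.0407% of all genes called lower. The median of these factors was -0.11. Ebf1, an early B cell factor that also acts in preadipocytes, stood at 3486 and 3460 CPM in labelled knockout and 3604 and 3629 CPM in labelled wild type (-0.06, SE 0.34). None was called of 22 Wnt genes, 26 TGF-beta and BMP genes, 19 PDGF and FGF genes, 15 semaphorin, plexin and neuropilin genes or 14 YAP target genes. Over all genes the called share was 0.122%. Tgfbr3, the co-receptor betaglycan, had 789 and 1011 CPM in labelled knockout and 1543 and 2016 CPM in labelled wild type (-0.98, edgeR adjusted p = 0.678). Tgfbr2, the type II receptor of TGF-beta, had 296 and 289 CPM in labelled knockout and 625 and 494 CPM in labelled wild type (-0.94, edgeR adjusted p = 0.607). Neither overlapped between the labels, again without passing the test.

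Glucocorticoid target genes lay mostly below 0. Of 15 tested, Errfi1 fell, against 0.0407% of all genes. The log2 difference was above 0 for 4 of the 15, against 49.6% of all genes, with a median of -0.57, and of -0.31 with the gate of at least 3 markers. In other stromal nuclei 2 of 13 were above 0 with a median of -0.27. Fkbp5, a chaperone of the glucocorticoid receptor, had 254 and 519 CPM in labelled knockout and 1078 and 901 CPM in labelled wild type (-1.32, edgeR adjusted p = 0.394). Zbtb16, the transcription factor PLZF, had 752 and 1251 CPM in labelled knockout and 2000 and 2718 CPM in labelled wild type (-1.22, edgeR adjusted p = 0.467). Of 12 complement genes, C7 fell, against 0.0407% of all genes, and the median was -0.50. The 12 immediate early and heat shock genes had no call and none at unadjusted p under 0.05, against 0.122% and 4.67% of all genes.

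Cavin1 was the only call of 7 caveola genes, against 0.0813% of all genes called higher. Cav1, the caveolin that builds the caveola with cavin-1, had 72.6 and 99.7 CPM in labelled knockout and 32.5 and 78.7 CPM in labelled wild type, which overlapped (0.72, SE 0.46). Of the genes that neighbour Cavin1 on chromosome 11, 8 were tested and none was called, against 0.122% of all genes. Their log2 differences ran from -0.25 to 0.24. Stat3, a neighbour that encodes a signal transducer of cytokine receptors, had 233 and 156 CPM in labelled knockout and 269 and 179 CPM in labelled wild type.

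Whether a label difference was larger in Pi16-type than in other stromal nuclei of the same libraries was tested as an interaction with library as a block. The edgeR quasi-likelihood test with Benjamini-Hochberg adjustment called 30 of 10556 genes (0.284%), 21 with a more positive difference in Pi16-type nuclei (0.199%) and 9 with a more negative one (0.0853%). Without adjustment, 671 genes (6.36%) had p under 0.05. In other stromal nuclei alone, 1 of 8595 genes (0.0116%) was called, the predicted gene Gm47283, with 408 at unadjusted p under 0.05 (4.75%) and 13 called by DESeq2.

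On the positive side, Fgf10 had 342 and 357 CPM in Pi16-type nuclei of labelled knockout and 111 and 62.9 CPM in those of labelled wild type. In other stromal nuclei it had 416 and 252 CPM in labelled knockout and 446 and 777 CPM in labelled wild type (difference of log2 differences 2.87, edgeR adjusted p = 0.00142). Bmper, a secreted modulator of BMP, had 368 and 273 CPM in Pi16-type nuclei of labelled knockout and 176 and 124 CPM in those of labelled wild type, against 395 and 275 CPM and 735 and 903 CPM in other stromal nuclei of labelled knockout and labelled wild type (2.37, edgeR adjusted p = 0.000149). For both genes the labels stood in opposite order in the 2 classes of nuclei. Among members taken apart by marker number, Fgf10 kept its order in each stratum (3 UMIs in labelled knockout 1 at 5 to 8 markers). Bmper overlapped at 2 markers, with 536 and 306 CPM of all UMIs in labelled knockout and 413 and 182 CPM in labelled wild type. Bmper also overlapped at 3 or 4 markers, and kept its order only at 5 to 8, with 2 UMIs in labelled knockout 1.

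Adam12 had 576 and 587 CPM in Pi16-type nuclei of labelled knockout and 127 and 334 CPM in those of labelled wild type, against 1138 and 831 CPM and 1182 and 2298 CPM in other stromal nuclei of labelled knockout and labelled wild type (2.26, edgeR adjusted p = 0.000139). In Pi16-type nuclei of labelled wild type it thus stood lowest. Among members by marker number, Adam12 lay higher in both labelled knockout libraries at 2 and at 5 to 8 markers but not at 3 or 4. Col4a2 did so at 2 and at 3 or 4 markers but not at 5 to 8. Col4a2 (1.97), Lpl (1.94), Col15a1 (1.94), a basement membrane collagen, Col27a1 (2.17), a fibrillar collagen, and Frem1 (2.48), a basement membrane protein, were also called on this side, as were the imprinted genes Peg3 (2.46) and Zim1 (2.69). Of these 10 genes, Zim1, Peg3 and Col15a1 lost the call without nuclei that carried 2 markers of another cell type (edgeR adjusted p = 0.0616 for Peg3 and 0.0675 for Col15a1). With 1 library left out, the calls of Fgf10, Bmper, Adam12, Col4a2 and Col15a1 held. Zim1, Frem1, Peg3 and Lpl lost theirs without labelled knockout 2 (edgeR adjusted p = 0.0570 to 0.815), Zim1, Frem1 and Col27a1 without labelled wild type 2 (0.0742 to 0.312), and Col27a1 without labelled knockout 1 (0.0593).

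On the negative side, Dpp4 had 431 and 733 CPM in Pi16-type nuclei of labelled knockout and 1059 and 732 CPM in those of labelled wild type, against 63.2 and 76.3 CPM and 26.4 and 37.6 CPM in other stromal nuclei of labelled knockout and labelled wild type (-1.83, edgeR adjusted p = 0.0453). Igfbp5, a binding protein of insulin-like growth factors, had 737 and 1315 CPM in Pi16-type nuclei of labelled knockout and 1797 and 683 CPM in those of labelled wild type, against 403 and 665 CPM and 285 and 25.1 CPM in other stromal nuclei of labelled knockout and labelled wild type (-2.24, edgeR adjusted p = 0.00815). In Pi16-type nuclei both genes overlapped between the labels. Without nuclei that carried 2 markers of another cell type, the call of Dpp4 was lost (edgeR adjusted p = 0.0701) and that of Igfbp5 was not (-2.57).

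Several of the other negative calls rested on few nuclei. Slc7a2, a transporter of cationic amino acids (-3.34, edgeR adjusted p = 0.00274), had 12 and 158 UMIs in Pi16-type nuclei of labelled knockout and 40 and 114 in those of labelled wild type, and in labelled wild type 2 the 5 richest nuclei held 94.7% of them. Without nuclei that carried 2 markers of another cell type, its difference was 1.18 (edgeR adjusted p = 0.965). Slc12a2, a cotransporter of sodium, potassium and chloride (-3.03), had 94.6% of its UMIs in labelled wild type 2 in 5 nuclei, and without nuclei that carried 2 markers of another cell type its difference was -0.93 (edgeR adjusted p = 0.965). Tph1, the first enzyme of serotonin synthesis outside the brain (-6.34), had 0 and 5 UMIs in labelled knockout and 2 and 39 in labelled wild type, the last in 4 nuclei. The gene ENSMUSG00000029378, named Mcub in the files and Areg in GENCODE M21 (-6.29), had 1 and 7 UMIs in labelled knockout and 3 and 136 in labelled wild type, the last in 7 nuclei. Glul, glutamine synthetase (-2.01), and Alcam, an adhesion molecule (-1.79), lost the call without such nuclei (edgeR adjusted p = 0.125 for Glul and 0.303 for Alcam). Alcam had a difference of -1.02 without labelled knockout 2 (edgeR adjusted p = 0.746). Dpp4 lost its call without labelled knockout 1, labelled knockout 2 or labelled wild type 1, Glul without labelled knockout 1 or labelled wild type 1, Igfbp5 without labelled knockout 2, and Alcam and Slc7a2 without labelled wild type 2. Tph1 and the gene named Mcub lost theirs without labelled knockout 2 or labelled wild type 2 (-3.65 and -2.07 without the last).

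**Figure D5:**
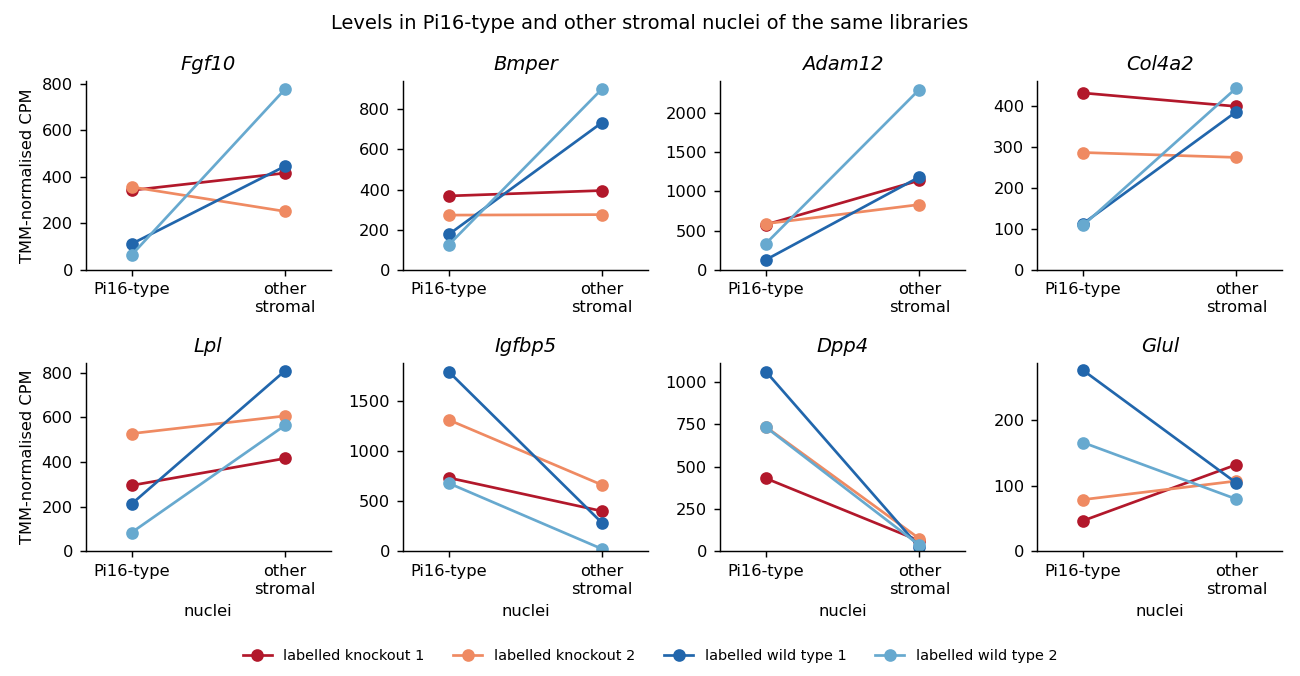
TMM-normalised CPM (vertical axis) of 8 genes with a called difference between classes, in Pi16-type (left) and other stromal nuclei (right) of each library, with 1 line joining the values of a library. Fgf10 and Bmper are higher in labelled knockout in Pi16-type nuclei and not in other stromal nuclei.

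Markers of other cell types were present in the members. The share of members with 2 or more markers of another type was 32.9% and 64.5% in labelled knockout. It was 32.4% and 32.1% in labelled wild type. Labelled knockout 2, the deepest library by median UMIs, stood apart, and not in members alone. Of all its filtered nuclei, 23.97% had 2 T and NK markers, against 11.75% in labelled knockout 1 and 18.89% and 14.81% in labelled wild type. Among all filtered nuclei it was also highest for endothelial, macrophage, B, plasma and mural markers. Luminal and myoepithelial shares were highest in labelled wild type 1. The part of depth was not tested. The types counted were blood vascular endothelial, macrophage, T and NK, B, plasma, luminal mammary epithelial, myoepithelial and mural cells. Ebf1 counted as a B cell marker. Schwann, adipocyte, lymphatic endothelial, mesothelial and cycling markers were not counted. Over 7 plasma cell markers, of which Tent5c matched no symbol and Igkc had no UMI in any filtered nucleus, the summed level was 92.8 and 840 CPM of all UMIs in labelled knockout and 64.5 and 62.1 CPM in labelled wild type. The 9 B cell markers summed to 3454 and 3773 CPM in labelled knockout and 3502 and 3394 CPM in labelled wild type. Ebf1, which preadipocytes also express, made up 3283 and 3421 CPM in labelled knockout and 3323 and 3275 CPM in labelled wild type. Luminal mammary epithelial markers, 12 genes, summed to 620 and 1201 CPM in labelled knockout and 1146 and 1054 CPM in labelled wild type. Prlr, 1 of the 12, had 30 and 351 UMIs in labelled knockout and 179 and 298 in labelled wild type. The 7 Schwann cell markers summed to 493 and 677 CPM in labelled knockout and 963 and 584 CPM in labelled wild type, each above all filtered nuclei of its own library (386 and 448 CPM in labelled knockout, 553 and 414 CPM in labelled wild type). The 12 blood vascular endothelial markers summed to 552 and 637 CPM in labelled knockout and 673 and 572 CPM in labelled wild type, against 474 to 684 CPM in all filtered nuclei. The B cell, luminal, Schwann and endothelial sums overlapped between the labels. Summed over 10 mural markers the level was 425 and 528 CPM in labelled knockout and 287 and 201 CPM in labelled wild type, which did not overlap. Pdgfrb, 1 of the 10, had 34 and 187 UMIs in labelled knockout and 32 and 35 in labelled wild type. The sum without Pdgfrb was not compared. Macrophage markers, 12 genes, summed to 537 and 790 CPM in labelled knockout and 509 and 563 CPM in labelled wild type, with Cd68 at 0 in 3 of the 4 libraries. The 3 adipocyte markers outside the gate (Lipe, Pnpla2 and Plin4) summed to 97.7 and 110 CPM in labelled knockout and 80.6 and 49.7 CPM in labelled wild type. Without the members that carried 2 markers of a counted type, 8 genes were called between the labels in place of 12. Members with Schwann or adipocyte markers were not removed on that ground. For the other lists the part of these markers was not tested.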

How the data were processed

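Nuclei from inguinal white adipose tissue were profiled in 4 libraries (labelled PTRF knockout and wild type, 2 each). The authors deposited a matrix of whole-number UMI counts per gene and barcode for each library, not normalised, with 53715 genes and no barcode under 500 UMIs. Per the submitters' processing notes Seurat 4.3.0 and the build GRCm38 (mm10) were used. No source used here gives the aligner, the strand setting or any removal of doublets. Scrublet (scanpy 1.11.5, Python 3.11.15) called 0 to 2 nuclei per library and so did not work here, and doublets remain.

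Filtering and the gate were applied to the deposited counts, and groups came from the sample labels. The members and the gene lists were chosen with earlier results of these data known. The counts of members were summed per library and tested with edgeR 4.0.16 in R 4.3.3 (quasi-likelihood test, filterByExpr, TMM, Benjamini-Hochberg over all genes tested, threshold 0.05), n = 2 against 2. The difference of label effects between Pi16-type and other stromal nuclei used 8 sums with library as a block. The scripts were tested on simulated counts. Shares were compared by an exact permutation test, with exact binomial intervals. Levels within libraries were CPM of all UMIs, and log2 ratios used a prior count of 0.5. Alternatives were DESeq2 1.42.0 (size factors, Wald test), limma-voom 3.58.1, no count filter, a replicate block, each library left out, other gates and filters, and thinning to 600 or 1000 UMIs.

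Named genes were Cavin1, all called genes outside the gate that were not predicted genes, the 10 genes per direction with the smallest p, up to 4 list members by mean CPM plus those called, the 25 leading and 10 lowest genes of the members, and up to 10 genes per direction of the interaction. Predicted genes and other list members named beside these were chosen after their values were seen. Gene positions are from GENCODE M21, which held 53620 of the identifiers. Libraries held 8623219 to 34819482 UMIs in filtered nuclei and shared 47 to 143 cell barcodes per pair, none among members.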

Additional observations from a re-analysis of the deposited data

Results flagged for a closer look

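The label effect differed between Pi16-type and other stromal nuclei for 18 named genes by the interaction test (edgeR's quasi-likelihood test, Benjamini-Hochberg adjusted p under 0.05). The value given is the difference of log2 label effects, labelled knockout minus labelled wild type, in Pi16-type minus other stromal nuclei.

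It was positive for Fgf10 (2.87), Zim1 (2.69), Frem1 (2.48), Peg3 (2.46), Bmper (2.37), Adam12 (2.26), Col27a1 (2.17), Col4a2 (1.97), Col15a1 (1.94) and Lpl (1.94). The imprinted gene Peg3, a zinc finger protein, had 51.9 and 161 CPM in Pi16-type nuclei of labelled knockout and 61.2 and 39.3 CPM in those of labelled wild type, against 87.0 and 143 CPM and 402 and 180 CPM in other stromal nuclei of labelled knockout and labelled wild type. Its neighbour Zim1 had 20.8 and 74.4 CPM in Pi16-type nuclei of labelled knockout and 32.5 and 15.7 CPM in those of labelled wild type, against 34.3 and 56.3 CPM and 144 and 142 CPM in other stromal nuclei of labelled knockout and labelled wild type. For both, the larger label difference stood in the other stromal nuclei.

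It was negative for Tph1 (-6.34), the gene named Mcub in the files (-6.29), Slc7a2 (-3.34), Slc12a2 (-3.03), Igfbp5 (-2.24), Glul (-2.01), Dpp4 (-1.83) and Alcam (-1.79). Glul had 46.7 and 78.7 CPM in Pi16-type nuclei of labelled knockout and 275 and 165 CPM in those of labelled wild type, against 132 and 107 CPM and 104 and 79.4 CPM in other stromal nuclei of labelled knockout and labelled wild type. In labelled wild type 2, 5 Pi16-type nuclei held 53.6% of the Glul UMIs and 75.1% of the Alcam UMIs.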

How the results depend on the processing

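In Pi16-type nuclei 12 genes were called between the labels. The count was 31 without a filter on low counts (11 higher and 20 lower, against 8 and 4), 23 with DESeq2's Wald test (10 and 13), and 31 to 79 with 1 library left out: 31 without labelled knockout 1, 72 without labelled knockout 2, 73 without labelled wild type 1 and 79 without labelled wild type 2, the lone library of a label then being assumed to vary like the others. It was 3 with at least 3 markers, 1 with 0 adipocyte genes, 2 after thinning to 600 UMIs, 2 at 1000 UMIs and 500 genes, and 2 without the 5% highest Scrublet scores. In strata added after seeing the data it was 1 at exactly 2 markers, 3 at 3 or 4 and 2 at 5 to 8. DESeq2's size factors gave 12, limma-voom 11, at least 2 stromal genes 18 and removal of members with 2 markers of another type 8. The cause was not tested.

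Deviations of same-numbered libraries from their group means were not positively correlated (r = -0.25 over 9840 genes). With 2 libraries of unlike depth in each group, this cannot show whether same-numbered libraries were paired. A replicate block gave 6 calls, 5 of them shared with the 12, and the crossed pairing, added after seeing the data, 96.

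In other stromal nuclei 1 gene was called, 39 without a count filter, 13 by DESeq2's Wald test and 9 to 74 with 1 library left out (47 without labelled knockout 1, 9 without labelled knockout 2, 64 and 74 without labelled wild type 1 and 2). The interaction gave 30 calls and 15 to 69 with 1 library left out (55 without labelled knockout 1, 15 without labelled knockout 2, 69 without labelled wild type 1). Slc7a2 turned to 1.18 without nuclei with 2 markers of another type.

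The difference in the share of all nuclei was -1.11 percentage points, and -2.84 to 0.617 with 1 library left out, positive without labelled knockout 1. The difference in the share of stromal nuclei was -9.51, -16.0 with at least 2 stromal genes, -16.2 after thinning to 1000 UMIs, and -14.1 to -4.93 with 1 library left out. Against all other nuclei, 6 of the 25 leading genes stayed among the leading 25.

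Over 38 named results, 339 alternatives left the call as it was, 101 ended it, 59 made it and 1 turned the direction. DESeq2 gave no adjusted p for Cavin1, Irf4, Jchain and Gucy1a1. Depth limits the labelled knockout side, where 1 library held 204704 UMIs in members.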

Other observations

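The call with the smallest adjusted p in Pi16-type nuclei was the predicted gene Gm47283, annotated on chromosome Y (90784738 to 90816464). It had 3476 and 1668 CPM in labelled knockout and 40.0 and 45.2 CPM in labelled wild type (log2 difference 5.91, edgeR adjusted p = 6.54e-05). Xist, the RNA of the inactive X chromosome, had 555 and 931 CPM in labelled knockout and 929 and 775 CPM in labelled wild type, so all 4 libraries held it. The sex of the mice was not given and was not tested from these genes.

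Prolactin receptor (Prlr) lay lower in labelled knockout, at 156 and 189 CPM, than in labelled wild type, at 224 and 586 CPM, without passing the test (-1.20, edgeR adjusted p = 0.681). The immunoglobulin heavy chain Igha had 36.3 and 617 CPM in members of labelled knockout and was at 0 in both labelled wild-type libraries. Jchain was also highest in labelled knockout 2, where most of its UMIs lay in a single nucleus. How many nuclei carried Igha was not counted.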
